A study of Mus musculus with 2 samples.

Results

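Polyamines (putrescine, spermidine and spermine) are small, positively charged molecules that bind nucleic acids and that dividing cells need for translation and growth. The 8 genes described here make them, break them down or control the first step of their synthesis. The genes were found as rows of the deposited gene lists whose symbol is Srm, Sms, Odc1, Amd1, Sat1, Oaz1, Oaz2 or Azin1, and all 8 were present among 32285 genes. They were chosen as genes of a single pathway with earlier results of these data known, the ratio of HC over NC for Srm among them. Values by library and by Myc or Egr2 are therefore descriptions.

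The series concerns electrical stimulation, through the matrix, of murine CD8+ T cells taken from lymph node. There was 1 library labelled HC and 1 labelled NC, and the labels neither spell out these abbreviations nor tell which of them was stimulated. They give no strain, age or sex. Each library was prepared by the 3' v3.1 chemistry of 10x Genomics, which tags each captured RNA molecule near its 3' end with a unique molecular identifier (UMI). With 1 library per group no test between groups was possible. Every interval below is at 95% and covers counting error only, not the difference between animals or cultures. Intervals of levels and ratios treat each UMI as an independent draw. They leave out spread between cells and are too narrow where the UMIs of a gene gather in some cells.

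A barcode counted as a cell if it had 500 or more genes and 1000 or more UMIs, no more than 10% of them mitochondrial. In HC 13617 cells were kept (median depth 7425 UMIs), and in NC 13641 (median depth 6898 UMIs). In total 114430972 HC and 115789139 NC UMIs were summed. Levels are given as CPM, UMIs per 1000000 UMIs of the same cells. A UMI stands for 1 captured molecule whatever the length of the gene. Levels set side by side across genes are approximate, because genes differ in the 3' sequence they share with others, given below. Most cells held a UMI of Cd8a or Cd8b1, 98.3% in HC and 98.4% in NC. Markers of other cell types were scarce: the 5 B cell markers summed to 2.88 CPM in HC and 23.4 CPM in NC, the 5 macrophage and dendritic cell markers to 0.0350 and 3.66 CPM, and the 2 CD4 T cell markers to 0.0350 and 0.0345 CPM. Against these, 5 T cell markers (Cd8a, Cd8b1, Cd3e, Cd3d and Trac) summed to 2759 and 3182 CPM. The last 3 are not particular to CD8 T cells. Cd8a stood at 244 CPM in HC and 354 CPM in NC, and Cd8b1 at 529 and 568 CPM. The 2 NK cell markers summed to 0.122 CPM in HC and 0.0950 in NC, the 3 of endothelium and stroma to 0.341 and 0.242, and the 2 erythroid markers to 0.0437 and 0.0259. C1qa and Hbb-bs were at 0 in both libraries. Lyz2 was at 0 UMIs in HC, with 416 in NC. Without the cells with 3 or more B cell marker UMIs the log2 ratio of HC over NC given below for Srm was still -0.99. The libraries shared 64 barcodes, 49 of them among kept cells.

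In mammalian cells ornithine decarboxylase (Odc1) makes putrescine from ornithine. S-adenosylmethionine decarboxylase (Amd1) supplies the aminopropyl groups that spermidine synthase (Srm) adds to putrescine and spermine synthase (Sms) adds to spermidine. Spermidine/spermine acetyltransferase (Sat1) acetylates polyamines for export or oxidation. Antizymes (Oaz1 and Oaz2) bind ornithine decarboxylase and send it to the proteasome, and the antizyme inhibitor (Azin1), a relative of the enzyme without its activity, takes antizyme away from it. Myc, a transcription factor that T cells induce on activation, is known to switch on Odc1. Egr2 is a zinc finger factor that follows signalling through the T cell receptor.

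Antizymes are made only when ribosomes shift reading frame at an early stop codon, a shift that polyamines promote. The sites are shown because antizyme RNA, the quantity measured below, does not by itself give antizyme protein. They are 51 bases of GENCODE vM21 transcripts of genes on chromosomes 10 and 9, 5′ to 3′, with the stop codon in capitals, and 44 of the 51 bases are identical.
Oaz1: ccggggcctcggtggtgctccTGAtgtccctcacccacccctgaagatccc
Oaz2: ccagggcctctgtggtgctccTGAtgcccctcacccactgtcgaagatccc

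Promoter windows of 300 bases, 250 before and 50 after the annotated start, were available from RefSeq (build GRCm38.p6) for 6 of the 8 genes, in 7 windows. Srm and Azin1 had no entry. Both strands were searched for the E-box CACGTG that Myc is known to bind and for GCGTGGGCG or GCGGGGGCG, which EGR factors are known to bind. These motifs do not overlap. The E-box was in 1 of the 7 windows, the first of Sms, and in 7.15% of the 32851 promoter windows searched, which did not cover every chromosome. The EGR motifs were in 0 of the 7 windows and in 3.47% of those searched. The Sms window is shown for its match, which starts 196 bases before the annotated start (position -196) and is in capitals. The Odc1 window is shown because Odc1 had the largest ratio with Myc among the genes with a window. A match or its lack in these windows is a description and says nothing of binding.
Sms, chrX:157492238-157492537, minus strand: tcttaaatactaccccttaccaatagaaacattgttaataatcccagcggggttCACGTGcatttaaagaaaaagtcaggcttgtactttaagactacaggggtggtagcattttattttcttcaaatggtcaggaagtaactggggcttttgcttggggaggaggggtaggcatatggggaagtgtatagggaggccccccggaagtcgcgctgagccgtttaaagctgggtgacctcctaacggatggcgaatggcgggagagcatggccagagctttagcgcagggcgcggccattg
Odc1, chr12:17544623-17544922, plus strand: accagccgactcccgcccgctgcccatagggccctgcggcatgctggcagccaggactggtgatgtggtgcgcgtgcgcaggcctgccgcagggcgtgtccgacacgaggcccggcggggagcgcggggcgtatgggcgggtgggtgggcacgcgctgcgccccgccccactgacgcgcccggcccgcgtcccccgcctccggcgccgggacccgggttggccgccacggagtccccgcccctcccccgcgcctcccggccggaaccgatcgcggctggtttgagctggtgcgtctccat

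The level of the synthesis genes was lower in the HC library than in the NC library, most of all for Srm, while the antizymes and their inhibitor had log2 ratios of HC over NC between -0.05 and 0.13. Srm (ENSMUSG00000006442, chr4:148591503-148594993) stood at 35.1 CPM in HC (34.0 to 36.2) and 69.8 CPM in NC (68.3 to 71.4), a log2 ratio of HC over NC of -0.99 (-1.05 to -0.94). It was 1.99-fold higher in NC. Odc1 (ENSMUSG00000011179, chr12:17544794-17551505) stood at 71.2 CPM in HC (69.6 to 72.7) and 106 CPM in NC (104 to 108), at -0.57 (-0.61 to -0.53), or 1.49-fold higher in NC. A gene was called at 1.5-fold. Of the 8 genes Srm was past it, with its whole interval, and Odc1 was the nearest short of it. Of the 8 genes 1 was called lower in HC and 0 higher, and of the 8704 genes that reached 5 CPM in HC or NC, 1.47% were called lower in HC and 1.93% higher. The median log2 ratio of the 8 was -0.20, and that of all 8704 genes -0.03.

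Sms (ENSMUSG00000071708, chrX:157443855-157492287) was the most abundant synthesis gene, at 110.3 CPM in HC (108 to 112) and 125 CPM in NC (123 to 127), with a log2 ratio of -0.18 (-0.21 to -0.14). Amd1 (ENSMUSG00000075232, chr10:40287458-40302186) was the scarcest, at 9.63 CPM in HC (9.07 to 10.2) and 11.3 CPM in NC (10.7 to 11.9). Its value is uncertain, because 99.3% of the 91-base words in the last 500 bases of its GENCODE transcripts also occur in other genes, above all in Amd2, a close copy that had 57 UMIs in HC and 52 in NC. Reads that match both may have been lost or split. The order of levels within each library was Oaz1, then Sms, then Odc1 and Sat1, then Srm, Azin1, Oaz2 and Amd1. In HC, Odc1 and Sat1 were neighbours whose intervals overlapped, at 71.2 and 69.8 CPM. In NC their intervals did not overlap, at 106 and 91.6 CPM.

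Sat1, the acetylating enzyme (ENSMUSG00000025283, chrX:155213132-155216449), stood at 69.8 CPM in HC (68.2 to 71.3) and 91.6 CPM in NC (89.9 to 93.4), with a log2 ratio of -0.39 (-0.44 to -0.35). It lay on the NC side together with the synthesis genes. Oaz1 (ENSMUSG00000035242, chr10:80826656-80829290) was by far the most abundant of the 8, at 1134 CPM in HC (1128 to 1140) and 1103 CPM in NC (1097 to 1109), a log2 ratio of 0.04 (0.03 to 0.05). Oaz2 (ENSMUSG00000040652, chr9:65668001-65690300) stood at 13.5 CPM in HC (12.8 to 14.2) and 12.3 CPM in NC (11.7 to 13.0). Azin1 (ENSMUSG00000037458, chr15:38487427-38519266) stood at 26.4 CPM in HC (25.4 to 27.3) and 27.4 CPM in NC (26.4 to 28.3), and the interval of its log2 ratio included 0 (-0.13 to 0.02). For each UMI of Odc1 there were 15.9 UMIs of Oaz1 in HC and 10.4 in NC. Of the 91-base words at the 3' end, 45.3% were shared with a pseudogene for Oaz1 that has no row in the files, 23.6% for Sms, 9.51% for Odc1 and 5.12% for Oaz2, and 0 for Srm, Sat1 and Azin1. Positions are from GENCODE vM21 on GRCm38, the mouse assembly also called mm10, the build that the submitters' notes name.

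**Figure D1:**
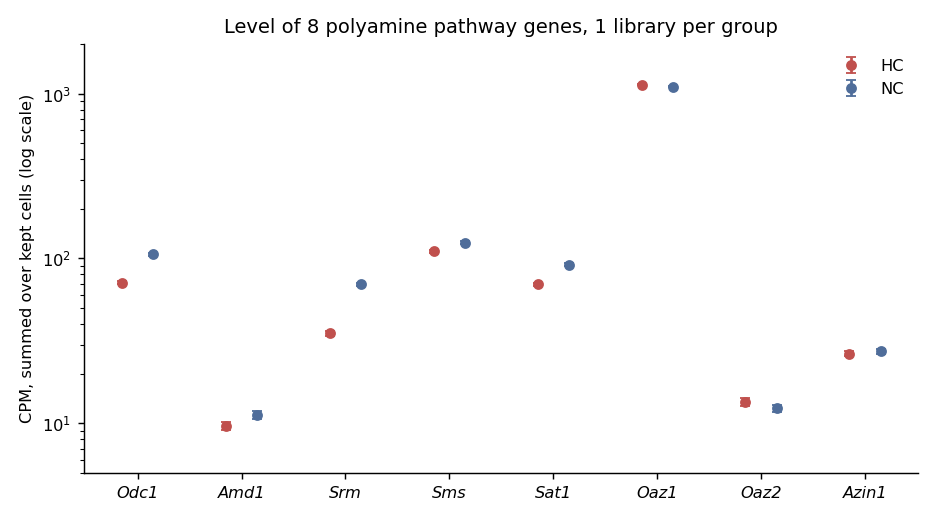
Level of the 8 genes in CPM (log axis) in the HC library and the NC library, 1 library per group. Points are sums over kept cells and bars 95% Poisson intervals for counting error; Srm shows the widest gap, at 35.1 CPM in HC and 69.8 CPM in NC.

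A UMI of Srm, Odc1, Amd1, Sms or Sat1 was found in a smaller share of HC cells than of NC cells. Shares move with depth, so each cell was also thinned to 2000 UMIs, which left out 94 HC and 133 NC cells. After thinning Srm was found in 5.03% of HC cells (4.67 to 5.41) and 10.5% of NC cells (9.99 to 11.0), and before thinning in 17.2% and 28.1%. Odc1 was found in 10.4% of thinned HC cells (9.88 to 10.9) and 15.2% of thinned NC cells (14.6 to 15.9), and before thinning in 34.3% and 40.9%. Sat1 was in 13.5% of thinned HC cells and 17.9% of thinned NC cells (40.8% and 48.9% before), and Sms in 18.4% and 20.6% (53.4% and 55.4% before). In NC, Odc1 had a higher level than Sat1 but was found in a smaller share of cells. Oaz1 was found in 88.3% of thinned HC cells and 87.7% of thinned NC cells (98.9% and 99.025% before). Azin1 was in 4.75% of thinned cells of both, Oaz2 in 2.76% of HC and 2.64% of NC cells, and Amd1 in 1.79% and 1.95%. Before thinning these 3 were in 18.7%, 10.3% and 7.44% of HC cells, and in 19.0%, 9.79% and 8.34% of NC cells. No cell type known to lack these genes was present to measure the background of free RNA. Among 21 NC cells with 3 or more UMIs of B cell markers (median 12872 UMIs) Srm was in 66.7% and Odc1 in 47.6%, and HC held 3 such cells. Srm UMIs were spread unevenly over cells. At 2000 UMIs a cell their variance was 1.20 times their mean in HC and 1.20 times in NC. For Odc1 it was 1.13 times in HC and 1.23 times in NC, for Sat1 1.07 and 1.09, and for Sms 1.02 and 1.03.

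Cells were next divided by whether they held a UMI of Myc or of Egr2. Myc was present in 2776 HC cells (20.4%) and 3443 NC cells (25.2%), Egr2 in 279 HC cells (2.05%) and 538 NC cells (3.94%). Both were present in 129 HC and 293 NC cells, Myc alone in 2647 and 3150, Egr2 alone in 150 and 245, and neither in 10691 and 9953. Absence of a UMI need not mean absence of the RNA: at 34.4 CPM in HC and 45.0 CPM in NC, Myc was often missed, and Egr2 stood at 3.15 CPM in HC and 6.05 CPM in NC. Depth moved with the classes, with a median of 11482 UMIs in HC cells with both, 9586 with Myc alone, 8161 with Egr2 alone and 6914 with neither, and 10701, 9092, 8748 and 6327 in NC cells. The part of depth in the differences between classes was not tested other than by thinning. Thinned values are given below for Myc and for HC over NC within the classes, but not for cells with Egr2 over cells without. Share of cells with a UMI of the dividing-cell genes Mki67 or Top2a also moved with the classes, at 83.7%, 86.9%, 80.7% and 76.5% in HC and 71.7%, 76.7%, 74.7% and 66.2% in NC, in the same order.

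Before thinning, Srm and Odc1 were higher in cells with Myc, and Amd1 to a smaller degree. The other 5 genes differed less, Sat1 being lower with Myc in both libraries. In HC, Srm stood at 72.8 CPM in cells with both Myc and Egr2 (60.2 to 87.3), 57.6 CPM with Myc alone (54.8 to 60.4), 52.2 CPM with Egr2 alone (41.0 to 65.4) and 26.4 CPM with neither (25.3 to 27.5). In NC, it stood at 134 CPM with both (122 to 146), 97.9 CPM with Myc alone (94.6 to 101), 108 CPM with Egr2 alone (95.3 to 121) and 53.0 CPM with neither (51.3 to 54.6). Cells with neither were lowest in both libraries, and their intervals did not overlap those of the other 3 classes. The intervals for Myc alone and Egr2 alone overlapped in both.

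Odc1 had the same order of classes as Srm in each library. In HC it stood at 131 CPM with both (113 to 150), 96.9 CPM with Myc alone (93.3 to 101), 81.4 CPM with Egr2 alone (67.3 to 97.5) and 61.0 CPM with neither (59.4 to 62.7). In NC it stood at 194 CPM with both (180 to 209), 134 CPM with Myc alone (130.3 to 138), 163 CPM with Egr2 alone (147 to 179) and 87.2 CPM with neither (85.1 to 89.3). The Odc1 intervals for Egr2 alone and Myc alone overlapped in HC but not in NC, where Egr2 alone was higher. The 4 synthesis genes together summed to 343 CPM in HC cells with both and 203 CPM in HC cells with neither, and to 486 CPM and 268 CPM in NC cells.

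**Figure D2:**
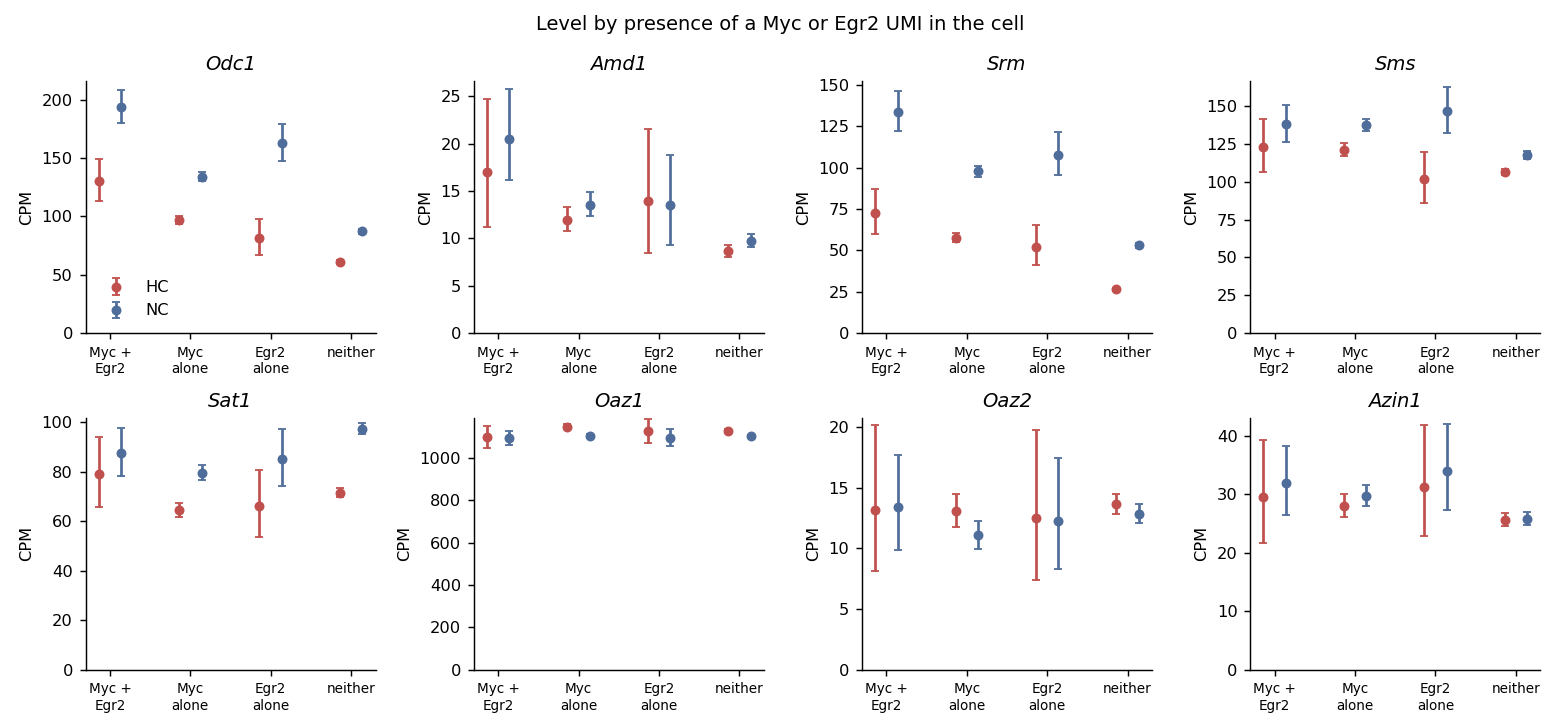
Level in CPM of each gene in cells with UMIs of both Myc and Egr2, Myc alone, Egr2 alone or neither, in the HC library and the NC library (1 each). Bars are 95% Poisson intervals for counting error, and Srm lies between 72.8 and 26.4 CPM in HC and between 134 and 53.0 CPM in NC, while Oaz1 stays between 1096 and 1149 CPM.

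As ratios, Srm in cells with Myc over cells without had a log2 ratio of 1.12 in HC (1.03 to 1.21) and 0.89 in NC (0.83 to 0.95). Odc1 had 0.68 in HC (0.62 to 0.75) and 0.64 in NC (0.59 to 0.70), and Amd1 0.49 (0.30 to 0.67) and 0.53 (0.36 to 0.69). Of the 8 genes, 2 (Srm and Odc1) were at least 1.5-fold higher with Myc in each library. Over all genes with at least 5 CPM, 1.62% were called higher with Myc in HC and 2.04% in NC. With presence of Myc set after thinning to 2000 UMIs, Odc1 was no longer called in HC, at 0.29, and was called in NC, at 0.62. Whether the Srm ratio differed between libraries was not tested. Sms was at 0.19 in HC and 0.21 in NC and Azin1 at 0.13 and 0.20. Sat1 ran the other way, at -0.13 in HC (-0.20 to -0.06) and -0.27 in NC (-0.33 to -0.21). Oaz1 was at 0.02 in HC and 0.00 in NC, with Oaz2 at -0.06 (-0.23 to 0.11) and -0.18 (-0.35 to -0.02).

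With Egr2 over without it, Srm had a log2 ratio of 0.87 in HC (0.66 to 1.08) and 0.88 in NC (0.77 to 0.99). Odc1 was at 0.61 in HC (0.45 to 0.77) and 0.83 in NC (0.74 to 0.92), and Amd1 at 0.71 (0.26 to 1.13) and 0.69 (0.40 to 0.98). These 3 synthesis genes were called higher in each library, beside 4.05% of all genes called higher in HC and 3.68% in NC. Sms was at 0.03 in HC (-0.13 to 0.19) and 0.20 in NC (0.10 to 0.29). The Sat1 and Oaz1 intervals included 0 in both libraries. Among cells without Myc, Odc1 in HC was at 0.42 (0.14 to 0.68) and Amd1 in NC at 0.47 (-0.08 to 0.96), both under 1.5-fold. The Egr2 ratios rest on few HC cells, and Amd1 had 47 UMIs in HC cells with Egr2, against 109 in NC cells with it.

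Cells were then thinned to 2000 UMIs, which evens the chance of finding a UMI but not the total each cell held before. That total had a median of 7422 UMIs in HC cells with 0 Myc UMIs and 7978 with 1. In NC cells it was 6932 and 7166. After thinning, Srm stood at 27.3 CPM in HC cells with 0 Myc UMIs (25.3 to 29.4), 44.6 CPM with 1 (34.5 to 56.7) and 21.3 CPM with 2 (2.58 to 76.9). In NC cells it stood at 57.8 CPM with 0 (54.8 to 60.8), 95.6 CPM with 1 (82.4 to 110.3) and 126 CPM with 2 (79.2 to 191). Only 47 HC and 87 NC cells had 2 Myc UMIs, and the HC value rests on 2 Srm UMIs, so no order can be read there. Odc1 stood at 57.7, 68.2 and 95.7 CPM in HC with 0, 1 and 2 Myc UMIs and at 87.4, 131 and 178 CPM in NC. In HC the Odc1 intervals for 0 and 1 overlapped (54.8 to 60.7 and 55.6 to 82.9). Amd1 stood at 8.72 CPM in HC with 0 Myc UMIs (7.61 to 9.95) and 14.9 CPM with 1 (9.32 to 22.5), the latter from 22 UMIs. In NC it stood at 9.77 CPM with 0 (8.58 to 11.1) and 12.7 CPM with 1 (8.23 to 18.8). Thus in HC Amd1 did not differ less than Odc1 at this depth, and the Amd1 intervals overlapped in both libraries. Sat1 did not differ beyond counting error between cells with 0 and 1 Myc UMIs in HC (75.7 and 66.2 CPM) or in NC (103 and 104 CPM). Cells with 3 or more Myc UMIs numbered 7 in HC and 8 in NC and were not read.

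**Figure D3:**
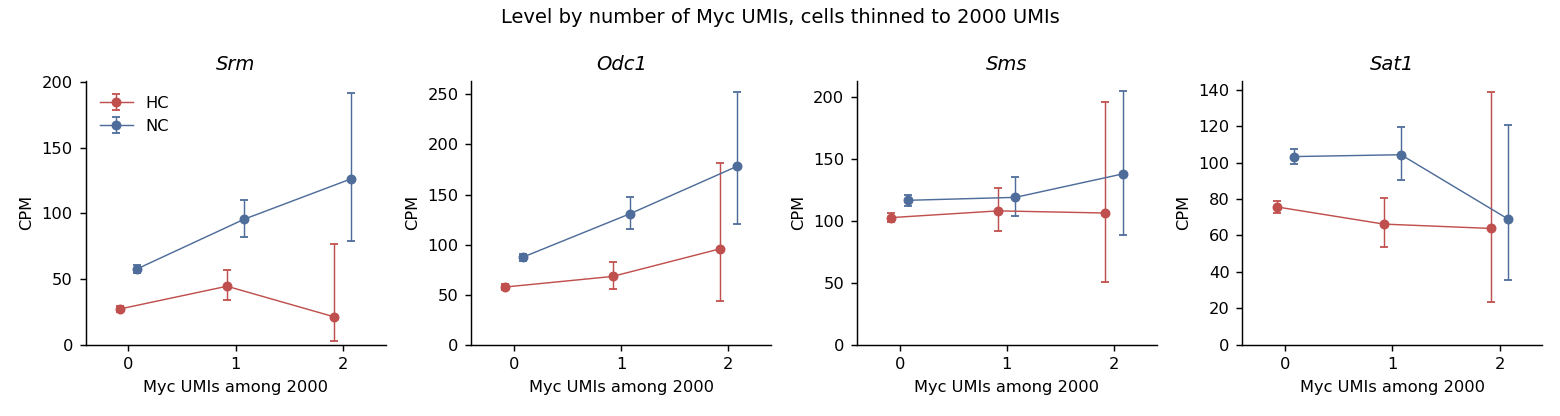
Level in CPM of Srm, Odc1, Sms and Sat1 by the number of Myc UMIs (0, 1 or 2) after each cell was thinned to 2000 UMIs, in the HC library and the NC library. Bars are 95% Poisson intervals; in NC Srm goes up over 57.8, 95.6 and 126 CPM, while the HC cells with 2 Myc UMIs give an interval of 2.58 to 76.9 CPM.

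The difference in Srm between the libraries was also present within each of the 4 classes. As a log2 ratio of HC over NC it was -0.88 in cells with both Myc and Egr2 (-1.18 to -0.59), -0.77 with Myc alone (-0.85 to -0.68), -1.05 with Egr2 alone (-1.44 to -0.67) and -1.004 with neither (-1.08 to -0.93). Srm was called lower in HC in all 4, where 8.98%, 1.7%, 9.88% and 1.06% of all genes were called lower. Odc1 was at -0.57 with both (-0.80 to -0.35), -0.47 with Myc alone (-0.54 to -0.40), -1.001 with Egr2 alone (-1.31 to -0.70) and -0.51 with neither (-0.57 to -0.46). It was called only with Egr2 alone. Over 5 alternative settings Odc1 with both lay between -0.57 and 0.18 and kept its sign in 3. It kept its sign in all 5 in the other classes, at -0.94 to -0.03 with Myc alone and -0.59 to -0.25 with neither. With the HC cells reweighted to the NC shares of the 4 classes, the ratio over all cells was -0.90 for Srm and -0.52 for Odc1. With classes set after thinning, Srm was at -1.09 with Myc alone and with neither, but -0.01 with Egr2 alone (-1.13 to 1.06). Without cells holding Mki67 or Top2a it was no longer called with both (-0.18, interval -1.05 to 0.60) or with Myc alone (-0.41, interval -0.71 to -0.11). Over 5 alternative settings Srm with both lay between -0.88 and -0.12, and with Myc alone between -1.09 and -0.24. Srm kept its sign in all 5 in each class, but its size in cells with both is not settled. Myc itself was at -0.39 (-0.45 to -0.33) and Egr2 at -0.94 (-1.13 to -0.76) over all cells.

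Cells holding Xcl1, a chemokine of activated CD8+ T cells, moved with the libraries, at 1049 HC cells (7.70%) and 4529 NC cells (33.2%), and they were also high in Srm. This split was chosen after the values were seen. Median depth was 9364 UMIs in HC cells with Xcl1 and 7299 without, and 8182 and 6496 UMIs in NC cells. A UMI of Mki67 or Top2a was in 84.0% and 78.2% of these HC cells, and in 79.0% and 63.9% of the NC cells. The part of depth or division in the Xcl1 differences was not tested. Srm stood at 80.7 CPM in HC cells with Xcl1 and 30.2 CPM in HC cells without, and at 113 CPM and 42.0 CPM in NC cells, log2 ratios of 1.42 (1.31 to 1.53) and 1.43 (1.36 to 1.49). Odc1 was at 1.15 in HC and 1.11 in NC, and Amd1 at 0.62 and 0.65, so that 3 of the 8 were called higher with Xcl1 in each library, beside 3.42% of all genes in HC and 4.28% in NC. Within cells with Xcl1 the log2 ratio of HC over NC was -0.49 for Srm (-0.59 to -0.38) and -0.16 for Odc1 (-0.24 to -0.08). Within cells without Xcl1 it was -0.48 for Srm (-0.55 to -0.40) and -0.20 for Odc1 (-0.25 to -0.14). None of the 8 genes was called in HC over NC in either of these classes, beside 2.68% and 2.67% of all genes called in either direction. Sat1 was at -0.25 with Xcl1 and -0.48 without it. With both splits, Srm in cells without Xcl1 was at -0.24 with Myc alone, -0.59 with neither and -1.44 with Egr2 alone.

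The Myc and Egr2 differences were smaller where cells with Xcl1 were left out, for some genes and libraries. For cells with Myc over those without, Srm was then at 1.11 in HC and 0.75 in NC, and Odc1 at 0.62 in HC and 0.41 in NC, the last under 1.5-fold. For cells with Egr2 over those without, Srm was at 0.29 in HC (-0.05 to 0.61) and 0.67 in NC, and Odc1 at 0.22 in HC (-0.02 to 0.45) and 0.55 in NC. The Egr2 differences in HC were thus under 1.5-fold in all 8 genes without those cells.

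**Figure D4:**
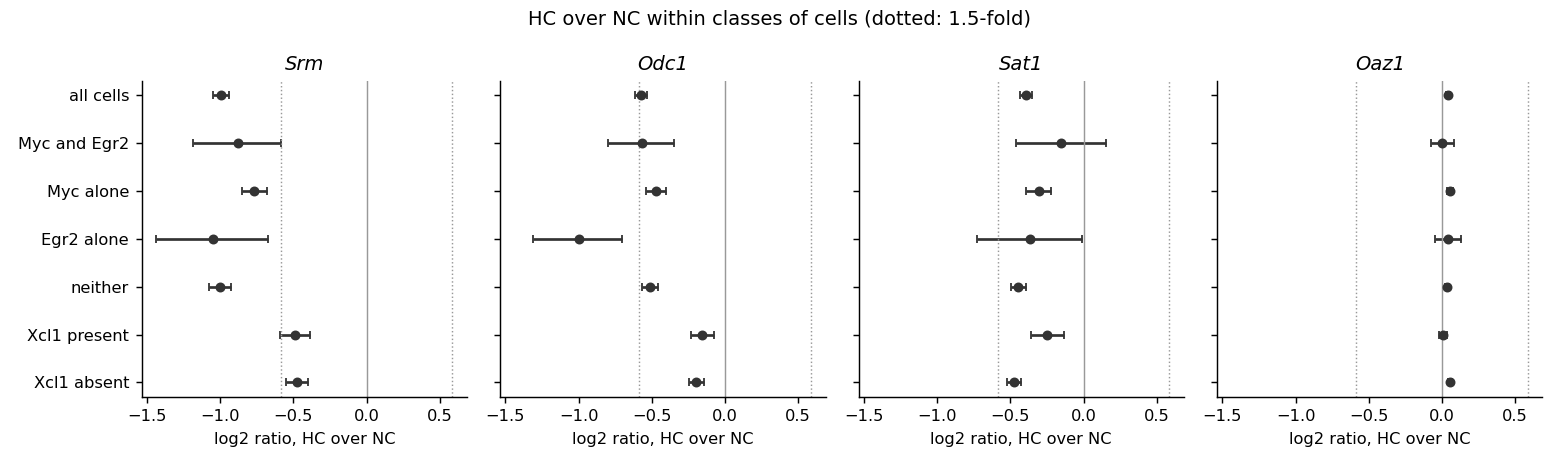
Log2 ratio of HC over NC for Srm, Odc1, Sat1 and Oaz1 over all cells, within the 4 classes by Myc and Egr2, and within cells with and without a UMI of Xcl1. Bars are 95% intervals for counting error and dotted lines mark 1.5-fold; Srm lies between -1.05 and -0.77 in the Myc and Egr2 classes and at -0.49 and -0.48 in the Xcl1 classes.

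Sat1 and Azin1 differed most by division. In cells with a UMI of Mki67 or Top2a over cells without, Sat1 had a log2 ratio of -0.71 in HC (-0.79 to -0.63) and -0.78 in NC (-0.83 to -0.72), and was called lower in both. Azin1 was at 0.82 in HC (0.63 to 1.02) and 0.94 in NC (0.79 to 1.09), and was called higher in both. Srm was at 0.54 in HC and 0.71 in NC, called in NC alone, and the difference between libraries was not tested. Many genes differ in this contrast: 14% of all genes were called higher and 4.74% lower in HC, and 12.1% and 5.82% in NC, so 1 higher and 1 lower of 8 in HC, and 2 higher and 1 lower in NC, stand beside a high background. Median depth was 8368 UMIs in HC cells with these genes and 4922 without, and 8310 and 5659 UMIs in NC cells.

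The genes with the pattern most like each of the 8 were sought over 14 classes of cells, formed by library and by presence of Myc, Egr2 and Mki67, with Pearson's r of log2 CPM as a description. A further 2 classes, of 34 and 47 HC cells, held fewer than 50 cells and were not used. These points share libraries and depth. Of 5073 genes with at least 20 CPM, those nearest to Srm were Bzw2 (r = 0.99), Odc1 (0.98), Ppp1r14b (0.98), Nolc1 (0.98) and Noc2l (0.98). Nearest to Odc1 were Srm (0.98), Rsl1d1 (0.98), Ppid (0.98), Nolc1 (0.98) and Rpf2 (0.98). Nearest to Sms were Mthfd1 (0.98), Tcof1 (0.98), Eif5a (0.97), Set (0.97) and Nme1 (0.97). Nearest to Amd1 were Psmd3 (0.95), Dot1l (0.95), Rnf4 (0.94), Zcrb1 (0.94) and Slc7a1 (0.93). Nearest to Sat1 were Atp6v1d (0.97), Idnk (0.97), Eef1b2 (0.96), Rps15a (0.96) and Lck (0.96), and its r with Oaz1 was -0.96 and with Srm 0.14. Oaz1 spanned only 0.26 on the log2 scale over these classes, while Srm spanned 2.73 and Odc1 2.01. The genes nearest to Oaz1 were Cdca3 (0.99), Lockd (0.98), Hist1h2ab (0.98), Rpa1 (0.98) and Hist1h3f (0.98). Those nearest to Azin1 were Samd1, Ubl4a, Rbmx2, Rex1bd and Xist, all at 0.97. Oaz2 reached 0.82 with Pold4, 0.80 with Rpl32 and 0.79 with Rpl13, Rps20 and Kbtbd11. Amd1 and Oaz2 were scarce in the smaller classes. HC cells with Egr2 alone, before the split by Mki67, held 20 UMIs of Amd1 and 18 of Oaz2, so the genes nearest to these may rest on counting error.

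The rest of the pathway was followed in 32 further genes, of which 22 reached the floor of 5 CPM. Of these 22, 1 was called higher in HC (Ass1) and 1 lower (Mtap), beside 1.93% and 1.47% of all genes, and their median log2 ratio was -0.08 against -0.03 for all genes. Genes on the supply side were split. Mat2a, which makes S-adenosylmethionine, stood at 88.1 CPM in HC and 129 CPM in NC, at -0.55 (-0.58 to -0.51), and Mtap, which recovers the methylthioadenosine that Srm and Sms release, at 17.7 and 26.7 CPM, at -0.59 (-0.68 to -0.51). The intervals of Mtap and Ass1 both reach under 1.5-fold, and with TMM scaling factors 1 of the 22 genes was called. Slc3a2, the shared heavy chain of several amino acid transporters, was at -0.46 and Slc7a1, an arginine transporter, at -0.33. Ass1, of arginine synthesis, stood at 19.96 CPM in HC and 12.5 CPM in NC, at 0.67 (0.58 to 0.77), with Asl at 0.25, Oat at 0.26 and Ahcy, which clears S-adenosylhomocysteine, at 0.48 (0.37 to 0.59).

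Genes that oxidise polyamines or move them between compartments lay on the HC side by under 1.5-fold. Smox, spermine oxidase, stood at 7.39 CPM in HC and 5.77 CPM in NC, at 0.36 (0.21 to 0.51), and Paox, which oxidises acetylated polyamines, at 13.8 and 11.1 CPM, at 0.31 (0.20 to 0.42). Atp13a2, a lysosomal polyamine exporter, was at 0.49 (0.39 to 0.60) and Atp13a3 at 0.06. Eif5a, the translation factor that carries hypusine made from spermidine, stood at 655 CPM in HC and 863 CPM in NC, at -0.40 (-0.41 to -0.38). Of the enzymes that make hypusine, Dhps was at -0.22 and Dohh at 0.06. The arginases were nearly absent, with 13 UMIs of Arg1 in HC and 11 in NC, and 5 and 3 of Arg2, and Oaz3 and Azin2 had 6 and 14 UMIs in HC and 7 and 5 in NC. Slc7a1, Mat2a and Mtap were also higher in cells with Myc, at 0.63, 0.52 and 0.54 in HC and 0.81, 0.60 and 0.64 in NC. Of the 22 genes, 1 was called higher with Myc in HC, beside 1.62% of all genes, and 3 in NC, beside 2.04%.

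**Figure D5:**
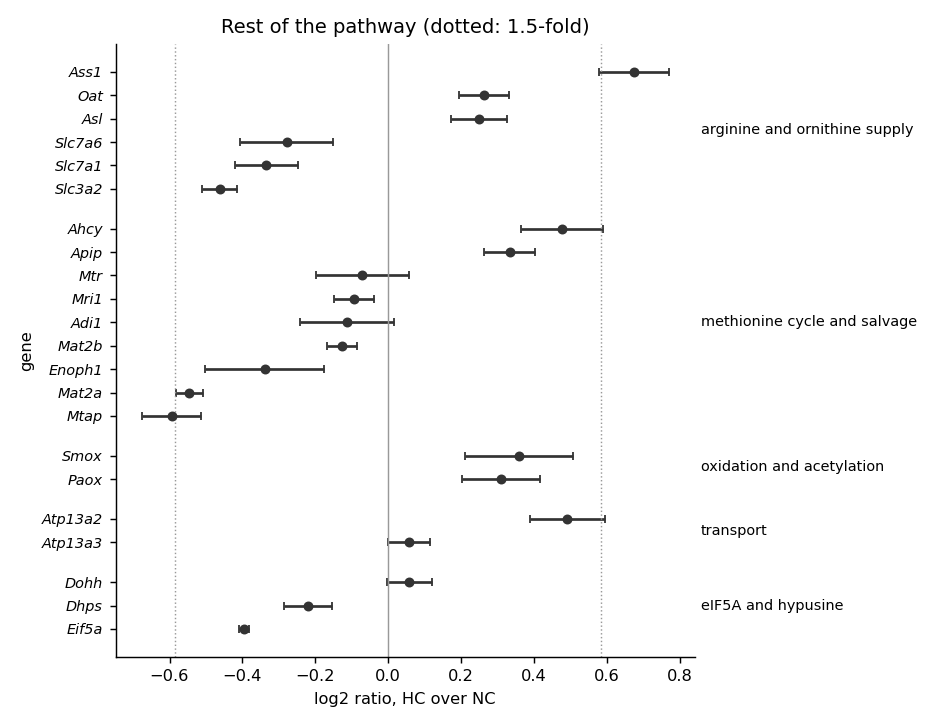
Log2 ratio of HC over NC for the 22 further pathway genes that reached 5 CPM, grouped by role, with 95% intervals for counting error (1 library per group). Dotted lines mark 1.5-fold, which Ass1 passed at 0.67 and Mtap at -0.59.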

How the data were processed

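UMI counts per gene and barcode were deposited, not normalized. The matrices carry the mark of Cell Ranger 6.1.2, per the file headers. The submitters' notes list mm10, Seurat 3.2.3 and Cell Ranger 5.0.0, but not which step each served. The annotation release is not given in the sources used here. The 8 genes, the further pathway lists and the markers were chosen with earlier results of these data known. Named genes were these, plus the 5 genes nearest to each of the 8.

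Counts were summed over kept cells and divided by their total. No doublets were removed. CPM have exact Poisson intervals, shares exact binomial (Clopper-Pearson) intervals, and ratios exact conditional binomial intervals, with no pseudocount. A gene was called at 1.5-fold if either group reached 5 CPM, and a group at 0 was set to a floor of 3 counts. Calls, ratio intervals and thinning were tested on simulated counts drawn independently, without spread between cells. That test therefore cannot show how well the intervals hold in these data. Intervals of CPM and of shares were not tested. TMM factors came from edgeR 4.0.16 and size factors from DESeq2 1.42.0, for scaling only. Python 3.11.15 (pandas 2.3.3, scipy 1.17.1, numpy 2.4.6, matplotlib 3.10.9) and R 4.3.3 were used. Alternatives varied the ratio and CPM floor, the cells used and their filter, depth, weights and scaling. Of these 2, leaving out cells with Xcl1 and cells with B cell markers, were chosen after seeing the data.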

Additional observations from a re-analysis of the deposited data

How the results depend on the processing

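Shares in percent are of all genes tested under the same setting and called in either direction. Of the 8 genes 1 was called in HC over NC (3.4% of all). The count was 2 with cells thinned to 2000 UMIs (4.2%) or without cells holding Mki67 or Top2a (4.39%), each time Srm and Odc1, and it was 3 at a laxer ratio than 1.5-fold (15.3%), 0 at 2-fold (0.62%) and 0 without cells holding Xcl1 (2.67%). Srm kept its sign in all 16 alternatives (-1.11 to -0.48), as did Odc1 (-0.64 to -0.20) and Sat1 (-0.48 to -0.36), while Oaz2 and Azin1 changed sign in 1 each. Of the further pathway genes 2 were called (3.4%). The count was 1 with TMM factors (3.41%), a stricter cell filter (3.65%), a floor of 20 CPM (2.46%), without cells holding Egr2 (3.18%) or Xcl1 (2.67%), and, with no share of all genes computed, with each cell weighing the same or HC at the class shares of NC. It was 5 without cells holding Mki67 or Top2a (4.39%), 11 at the laxer ratio (15.3%) and 0 at 2-fold (0.62%). With Myc over without, the count of 2 was at 2-fold 1 in HC (0.254%) and 0 in NC (0.277%), and without cells holding Xcl1 1 in NC (1.29%). These counts do not show which genes were called, and in HC Odc1 was not called with presence of Myc set after thinning. With Egr2 over without, the count of 3 was 0 at 2-fold in HC (1.4%) and NC (1.12%), and without cells holding Xcl1 0 in HC (7.19%) and 1 in NC (8.83%). Amd1 with Egr2 in HC changed sign without cells holding Mki67 or Top2a, to -0.26 (-3.32 to 1.63). Of 32 pairs of gene and class, 5 were called in HC over NC, beside 11.4% of such pairs over all genes. The count was 12 of 31 with classes set after thinning (39.9%), 8 without cells holding Mki67 or Top2a (31%), 11 at the laxer ratio (29%) and 3 at 2-fold (3.38%), and nothing about the 8 genes is read from these counts. The cause of these changes was not tested. No paired analysis was possible because there was 1 library per group.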

Other observations

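Srm followed the total UMIs of a cell differently in the libraries. In HC cells it stood at 8.90 CPM with 2000 to under 4000 UMIs (6.23 to 12.3), 20.6 CPM with 4000 to under 8000, 38.1 CPM with 8000 to under 16000 and 65.1 CPM with 16000 or more (61.3 to 69.2). In NC cells it stood at 58.3 CPM (51.9 to 65.2), 41.9, 68.6 and 117 CPM (113 to 121) in the same bins. HC was below NC in all 4. The 133 NC cells with 1000 to under 2000 UMIs held Srm at 116 CPM (74.6 to 173), from 24 UMIs, against 13.8 CPM (1.67 to 49.7), from 2 UMIs, in 94 HC cells. Sat1 ran the other way with depth, at 98.6 CPM in HC cells with 2000 to under 4000 UMIs and 60.5 CPM in those with 16000 or more, and at 113 and 66.1 CPM in NC cells.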
